A study of Mus musculus with 18 samples.

Results

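The transcripts of 46 genes of G2 phase and mitosis were followed across 18 mouse RNA-seq libraries to compare how strongly endothelial cells and cultured tumour cells carried them. The genes were chosen by symbol from a list of cyclins, mitotic kinases, checkpoint, kinetochore, spindle, cytokinesis and chromosome condensation genes. All 46 were found once among the 55401 rows of the endothelial table and once among the 22612 rows of the EO771 table. All 46 passed the mean count minimum of 10 in both tables, in which 18511 and 11602 genes were tested. Wild-type C57BL/6 mice without or with EO771 mammary tumours gave 4 endothelial groups of 3 libraries each. BEC normal libraries were blood vessel endothelial cells from the mammary fat pad of tumour-free mice, and BEC tumour libraries were such cells from primary EO771 tumours. HEC normal libraries were endothelial cells of high endothelial venules, the lymph node vessels through which lymphocytes enter, and HEC tumour libraries were HECs whose tissue is labelled as lymph node metastases. All were sorted as CD45- CD31-high cells, HECs as PNAd+ and BECs as PNAd- cells. EO771, a mouse breast cancer cell line in culture, gave 3 libraries with vehicle and 3 with 12-HETE, a lipid made from arachidonic acid by 12-lipoxygenase. The labels give neither the age of the mice nor the dose or duration of 12-HETE, and nothing in them says that replicates came from separate mice or cultures. The study's figure legends state 3 independent experiments for the endothelial and for the EO771 RNA-seq. Whether mice were pooled within an experiment is not given. P-values measure the spread between these libraries, part of which may be technical. HECs and BECs came from different organs, so cell type and tissue cannot be told apart in any comparison between them.

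Cells enter mitosis when CDK1 bound to cyclin B is activated, condense and capture their chromosomes, wait at the spindle checkpoint, and separate when the anaphase-promoting complex with CDC20 destroys securin and cyclin B. The genes for these proteins are transcribed together in G2 by the B-MYB, MuvB and FOXM1 proteins and are kept silent in resting cells by MuvB with p130 and E2F4. Resting vessels are known for few dividing endothelial cells, whereas lymph node vessels expand in reactive nodes and tumour vessels sprout.

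Joint transcription of these genes is known to run through the cell cycle genes homology region (CHR), with the letters TTTGAA or TTCGAA, and through the CCAAT box that NF-Y binds. Promoters of 300 bases, from 250 before to 50 after the start site, were available from RefSeq (build GRCm38.p6) for 39 of the 46 genes. Those without an entry were Ccna2, Aurkb, Incenp, Spc24, Kif20a, Tpx2 and Smc4. On either strand, TTTGAA stood in the promoters of 29 of the 39 genes (74.4%), against 17.9% of all 32851 promoters. TTCGAA stood in 3 (7.69%), against 1.56%. CCAAT stood in 29 (74.4%), against 37.4%, and both kinds of letters stood together in 26 (66.7%), against 7.52%. GGCGG, part of one E2F-type site, stood in 35 (89.7%), against 48.8%. The longer E2F-type letters were rare: GCGCGAAA, whose reverse complement is TTTCGCGC, stood in 1 promoter (2.56%, against 0.323%), TTTCCCGC in 1 (2.56%, against 1.07%) and TTTGGCGC in 0 (against 0.514%). Among 19 G1 and S phase genes with a promoter, TTTGGCGC stood in 5 and TTTGAA in 2. The promoters of Mad2l1, Pttg1, Birc5, Nuf2, Nusap1 and Ncaph held neither CHR letters nor CCAAT in this window. For Pttg1 the RefSeq start site and its window lie inside the gene as annotated on the minus strand (chromosome 11, 43420250 to 43426251). Bases before that annotated start were not searched.

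Bases before the start site are shown for 4 genes whose change with tumour differed between BECs and HECs (Cdc20, Ccnf, Ncapg, Mki67), for Cdk1, whose change did not pass that test, and for Pttg1, which moved the other way in BECs. Capitals mark CHR letters and CCAAT on either strand, so that TTCAAA and ATTGG are the same motifs read from the opposite strand. All are written 5′ to 3′ along the gene.
Cdc20, chr4:118437344-118437463, minus strand: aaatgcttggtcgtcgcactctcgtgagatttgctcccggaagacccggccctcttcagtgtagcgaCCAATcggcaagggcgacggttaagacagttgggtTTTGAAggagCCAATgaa
Ccnf, chr17:24251410-24251569, minus strand: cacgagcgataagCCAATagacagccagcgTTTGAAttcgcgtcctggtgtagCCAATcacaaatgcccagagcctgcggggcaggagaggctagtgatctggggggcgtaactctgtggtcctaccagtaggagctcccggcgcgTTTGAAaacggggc
Ncapg, chr5:45669735-45669924, plus strand: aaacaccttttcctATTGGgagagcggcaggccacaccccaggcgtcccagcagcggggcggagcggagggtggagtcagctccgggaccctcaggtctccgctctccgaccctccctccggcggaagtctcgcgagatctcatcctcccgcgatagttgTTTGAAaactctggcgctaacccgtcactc
Mki67, chr7:135716460-135716579, minus strand: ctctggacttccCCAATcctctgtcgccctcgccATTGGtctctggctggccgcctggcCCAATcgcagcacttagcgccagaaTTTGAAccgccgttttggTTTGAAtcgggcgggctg
Cdk1, chr10:69352913-69353032, minus strand: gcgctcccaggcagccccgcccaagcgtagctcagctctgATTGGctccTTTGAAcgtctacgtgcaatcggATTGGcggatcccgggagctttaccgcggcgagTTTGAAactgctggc
Pttg1, chr11:43425982-43426101, minus strand: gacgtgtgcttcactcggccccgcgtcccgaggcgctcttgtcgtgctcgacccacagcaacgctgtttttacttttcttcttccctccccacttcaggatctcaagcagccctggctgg
Cdc20 held 1 CHR and 2 CCAAT motifs in this stretch, Mki67 2 and 3, and Cdk1 2 and 2. The Mki67 stretch ends 81 bases before the RefSeq start site and the others end at the last base before it. For Cdc20, Ccnf, Ncapg and Cdk1 the bases nearest that site also lie inside the annotated gene, which begins at 118437352, 24251484, 45669919 and 69352938. The last CCAAT of Cdc20 and the last TTTGAA of Ccnf and of Cdk1 lie in that part. The Pttg1 stretch lies inside the annotated gene, so its lack of motifs does not describe the bases before the annotated start.

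The endothelial libraries held 56410964 to 79357993 counts in whole numbers that rose in steps of 3.82 to 3.96, and the EO771 libraries held 17294591 to 18624179 counts. No pair of libraries of a group agreed within sampling noise: chi-square per degree of freedom ran from 13.1 to 26.3 in endothelial pairs, from 16.5 to 46.3 in vehicle pairs and from 2.39 to 2.72 in 12-HETE pairs. All 10 endothelial markers were detected in every endothelial group (summed level 2634 to 3909 CPM, counts scaled to a common library total), although Cldn5, 232 to 280 CPM in BEC normal libraries, was at most 2.01 CPM in the other groups. Of the 6 high endothelial markers, Glycam1 was 0 in every BEC library and 573 to 1105 CPM in HEC libraries. Chst4 was 0 in every BEC library and 916 to 939 CPM in HEC tumour libraries, but ran from 0.0596 to 297 CPM in HEC normal libraries. Fut7 was at most 0.408 CPM in BECs and 221 to 1021 in HECs. Madcam1 was at most 0.257 CPM in HECs, and Enpp2 was 0.119 to 4 CPM in HECs and 0.725 to 3.82 in BECs. Ccl21a was 0 in all HEC libraries. Exons of 13 of the 46 genes overlap another annotated gene (Cdc20 with Elovl1, Plk1 with Gm44985, Ncapg with Lcorl, for example), so their counts may include that gene's reads. Several libraries stood apart on these genes. EO771 vehicle replicate 2 lay below both other vehicle libraries for 37 of the 46 and vehicle replicate 3 above both for 25. Their median log2 differences from the mean of the other libraries of the group were -0.23 and 0.22. In BECs the 22 genes with over 5000 exonic bases were high in normal replicate 1 (median difference 0.32) and low in normal replicate 2 (-0.28) and tumour replicate 3 (-0.15).

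Summed over the 46 genes, mitotic transcript was higher in BECs with tumour, lower in HECs with tumour and higher in EO771 cells with 12-HETE, each without overlap of the libraries. The sum was 5517, 4964 and 5117 CPM in BEC normal libraries, 7376, 7014 and 6678 in BEC tumour libraries, 6622, 6609 and 6653 in HEC normal libraries and 5672, 5607 and 5662 in HEC tumour libraries. It was 5945, 5244 and 6859 CPM with vehicle and 8357, 8419 and 8591 with 12-HETE. Within the endothelial table BEC normal libraries were lowest, HEC tumour libraries next, and all libraries of the HEC normal and BEC tumour groups lay above both. The HEC normal and BEC tumour groups were close to each other, since the highest HEC normal library (6653) lay just below the lowest BEC tumour library (6678). The vehicle libraries, from 5244 to 6859 CPM, lay inside the range of the endothelial libraries on this scale. When counts were first divided by exon length (TPM, described below), the vehicle sums were 4698, 4096 and 5215. The endothelial sums then ran from 3109 to 4525, so the order of EO771 and endothelial libraries depended on the scale. In bulk RNA, more cycling cells and more transcript per cycling cell cannot be told apart. The 2 tables were counted and scaled separately, so these levels are set side by side with no test between them.

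**Figure D1:**
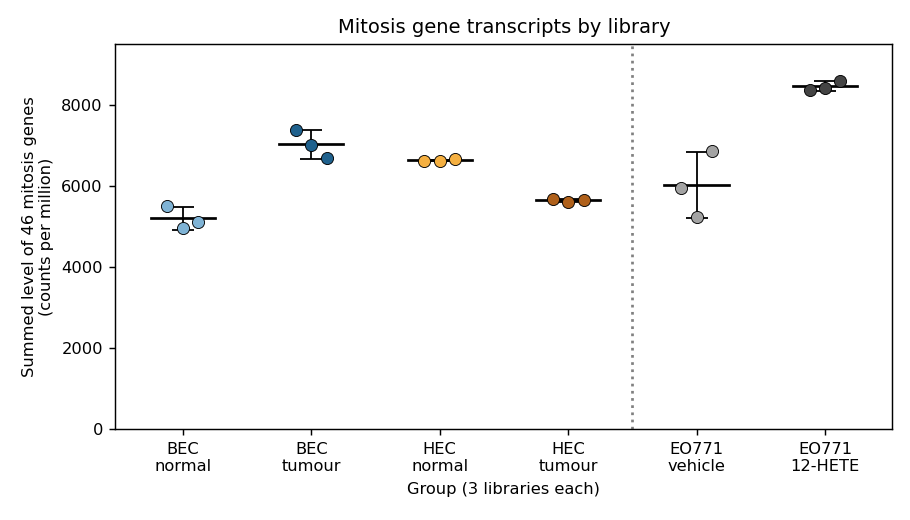
Summed level of the 46 mitosis genes in CPM (y axis, from 0) in each of the 18 libraries (points), with the mean and SD of each group of 3 (bars); the dotted line separates the 2 tables. BEC tumour libraries (6678 to 7376) sit above BEC normal libraries (4964 to 5517), HEC tumour libraries (5607 to 5672) below HEC normal libraries (6609 to 6653), and 12-HETE libraries (8357 to 8591) above vehicle libraries (5244 to 6859).

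Scaled per length (TPM, which divides each count by exon length before scaling the library), the median of the 46 genes was 41.5 TPM in BEC normal and 60.2 in BEC tumour libraries, 61.8 in HECs without and 51.4 in HECs with tumour, where that of all genes ranked was 7.69 to 8.57. In EO771 cells it was 75.4 TPM with vehicle and 93.4 with 12-HETE, against 26 and 24.6 over all genes ranked in that table. Between 42 and 46 of the 46 genes lay above the all-gene median in each group. Cdc20, the activator of the anaphase-promoting complex, had the highest TPM of the 46 in every endothelial group and with vehicle: 253 ± 11.2 in BEC normal and 638 ± 19.2 in BEC tumour libraries, 507 ± 22.4 in HECs without and 409 ± 14.2 in HECs with tumour, and 385 ± 3.91 in vehicle libraries (SD, n = 3). With 12-HETE Ube2c, its partner ubiquitin-conjugating enzyme, was highest at 412 ± 12.4 TPM. Cenpf, which encodes a very large kinetochore protein, was lowest in every endothelial group, from 2.02 ± 0.849 TPM in BEC normal to 11.9 ± 0.404 in HEC normal libraries (SD, n = 3). Mki67, the gene of the Ki-67 antigen used to stain cycling cells, was 23.3 ± 11.3 TPM in BEC normal, 83 ± 2.67 in HEC normal and 89.3 ± 47.5 in vehicle libraries (SD, n = 3).

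The first comparison asks how HECs differ from fat pad BECs in mice without tumours. Most mitosis genes were higher in HECs, led by kinetochore and condensin genes, while CDK1, cyclin B and KIF20A transcripts were lower. At an adjusted p under 0.05 and a fold change over 2, 7 of the 46 genes were higher (background 17.1% of all genes tested) and 1 was lower (background 15.1%). At the adjusted p alone 31 were higher (background 31.4%) and 13 lower (background 31.9%). The median log2 fold change of the 46 was 0.30, against 0.00 over all genes. The share called at both thresholds was thus below the background, and the share higher at the adjusted p alone was above it.

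Among kinetochore genes, Cenpf (chromosome 1, 189640606 to 189688086, GRCm38) had 1198, 611 and 667 normalised counts in BEC normal libraries and 4915, 4889 and 5173 in HEC normal libraries. All HEC libraries lay above all BEC libraries, with a log2 fold change of 2.60 ± 0.29 (SE, adjusted p = 5.66e-18, DESeq2). Cenpe, a kinesin that carries chromosomes along the spindle from the kinetochore, gave 1470, 751 and 818 counts in BECs and 5366, 5594 and 5269 in HECs, a log2 fold change of 2.42 ± 0.30 (adjusted p = 8.96e-15). Spc24, a subunit of the NDC80 complex that holds microtubules, rose 2.23-fold, and its partners Ndc80 and Spc25 were 1.47 and 1.22 times as high in HECs (adjusted p = 1.16e-06 and 2.46e-05). Nuf2, the remaining subunit, went the other way at a log2 fold change of -0.18 ± 0.07 (adjusted p = 0.0165).

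Condensin compacts mitotic chromosomes, and its ATPase gene Smc4 (chromosome 3, 69004738 to 69034623) had 4833, 2931 and 2829 normalised counts in BEC normal libraries and 16832, 18419 and 18464 in HEC normal libraries. The log2 fold change was 2.34 ± 0.22 (adjusted p = 2.23e-26, DESeq2). Ncapg, a condensin I subunit, rose 3.53-fold, Smc2 was 1.59 times as high (adjusted p = 0.0025), and Ncaph, a further subunit of that complex, did not pass at 0.09 ± 0.05 (adjusted p = 0.0821). Mki67 (chromosome 7, 135689784 to 135716361) had 9410, 4015 and 5137 counts in BECs and 23112, 23246 and 21884 in HECs, a log2 fold change of 1.88 ± 0.38 (adjusted p = 2.36e-06). The lowest HEC library held over 2 times the counts of the highest BEC library, and the BEC libraries also differed more than 2-fold among themselves. Cdc20 had 11654, 13360 and 12836 counts in BECs and 24323, 26334 and 26660 in HECs (1.03 ± 0.07, adjusted p = 6.82e-46), and it fell under the 2-fold threshold without BEC normal replicate 1 or with the trend over exon length removed (lowest log2 fold change 0.87).

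Genes lower in HECs came from several roles. Kif20a, a kinesin of the central spindle needed to finish division, had 17926, 19154 and 20440 normalised counts in BEC normal and 8326, 8619 and 8991 in HEC normal libraries, a log2 fold change of -1.15 ± 0.07 (adjusted p = 1.12e-59, DESeq2). Ccnb1, which encodes cyclin B1, was 1.8 times as high in BECs (adjusted p = 8.6e-15), Cdk1 1.31 times (3.5e-05), Ccnb2 1.21 times (1.53e-06) and Ccna2 1.14 times (0.0344). Pttg1, the gene of securin, the inhibitor of separase, was 1.61 times as high in BECs (adjusted p = 9.81e-08). Plk1 and Ccnf were higher in HECs, at 1.18 and 1.13 times the BEC level (adjusted p = 0.000641 and 0.0119). By role, 4 of 5 cyclin and CDK1 genes were lower in HECs at the adjusted p alone, whereas 4 of 4 checkpoint genes, 6 of 7 centromere and kinetochore genes and 6 of 7 chromosome structure genes were higher.

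**Figure D2:**
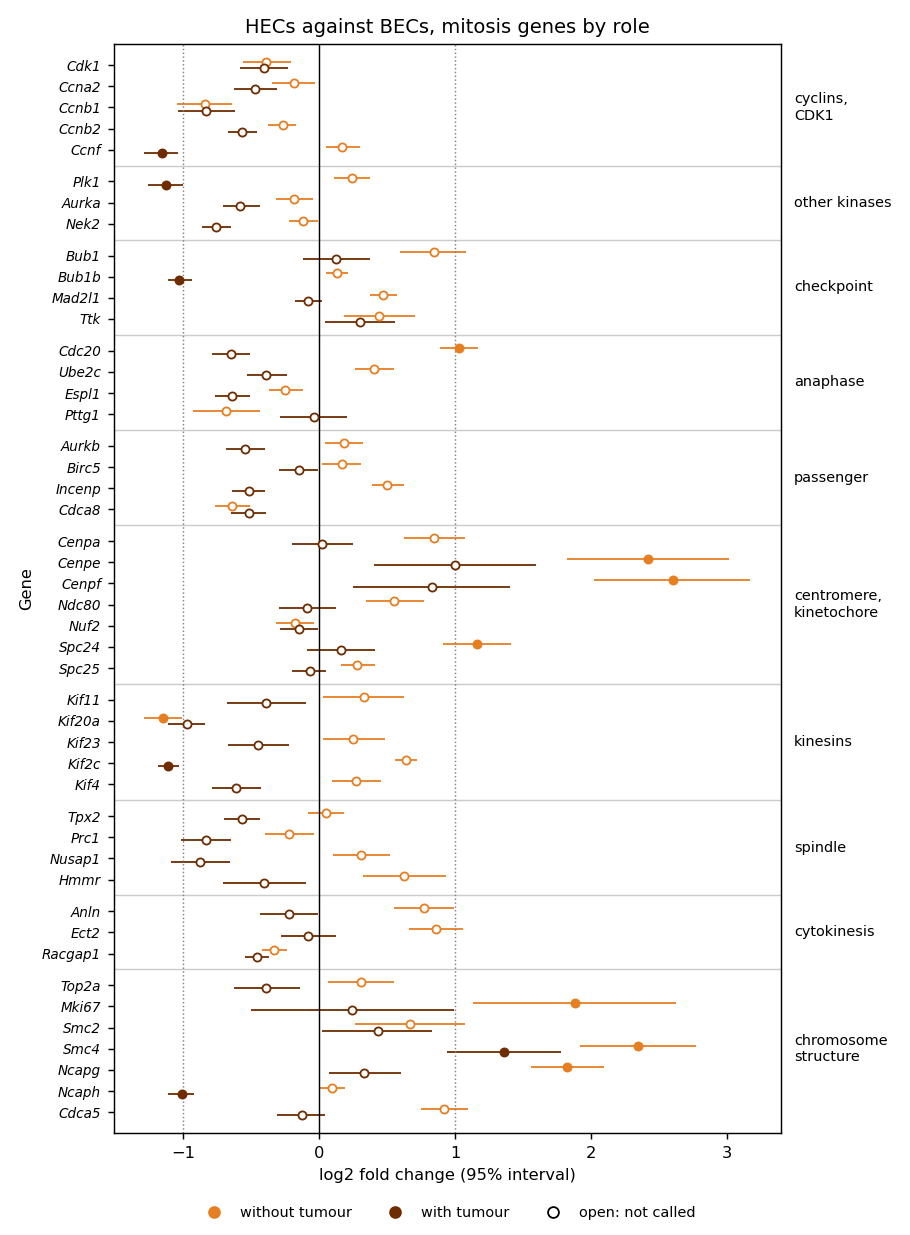
log2 fold change of HECs over BECs (x axis, with 95% intervals) for each of the 46 genes (y axis, grouped by role) without tumour (orange) and with tumour (brown); filled points passed the adjusted p and the 2-fold threshold, dotted lines mark 2-fold. Kinetochore and chromosome structure genes lie to the right without tumour, up to 2.60 for Cenpf, while kinases, kinesins and spindle genes lie to the left with tumour, down to -1.16 for Ccnf.

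With tumour the order turned, and most mitosis genes were lower in HECs than in BECs. Of the 46 genes, 1 was higher at both thresholds (background 11.2%) and 5 were lower (background 10.7%). At the adjusted p alone 5 were higher (background 25.9%) and 27 lower (background 28.4%), so that 58.7% of the 46 genes were lower. The median log2 fold change was -0.41, against 0.01 over all genes. Smc4 remained above BECs, with 17316, 17689 and 16037 normalised counts in HEC tumour against 8617, 6325 and 4928 in BEC tumour libraries (1.36 ± 0.22, adjusted p = 1.7e-09, DESeq2). Cenpe lay at the 2-fold threshold (1.00 ± 0.30, adjusted p = 0.00253) and passed both thresholds in 7 of 14 alternatives. Without BEC tumour replicate 1 there were 3 higher genes in place of 1, and without BEC tumour replicate 2 or HEC tumour replicate 1 there were 2.

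Plk1, the kinase that drives spindle assembly and mitotic exit, had 18551, 18791 and 19861 normalised counts in BEC tumour libraries and 9032, 8833 and 8269 in HEC tumour libraries. Every HEC library held fewer than every BEC library, with a log2 fold change of -1.13 ± 0.07 (adjusted p = 7.15e-65, DESeq2). Kif2c, which depolymerises microtubules at centromeres to correct attachment errors, had 16738, 16551 and 16738 counts in BECs and 7846, 7713 and 7578 in HECs (-1.11 ± 0.04, adjusted p = 4.69e-160). Ccnf, which encodes the F-box protein cyclin F, was 2.24 times as high in BECs, Bub1b, the checkpoint pseudokinase BubR1, 2.04 times, and Ncaph 2.02 times. Both of the last lay close to 2-fold: Bub1b lost the call with total-count factors (log2 fold change -0.97), and Ncaph with total-count factors, with values divided by their step and without HEC tumour replicate 3 (-0.96 at the smallest). By role, 5 of 5 cyclin and CDK1 genes, 3 of 3 other kinases, 5 of 5 kinesins and 4 of 4 spindle genes were lower in HECs at the adjusted p alone, but 0 of 7 centromere and kinetochore genes were, of which Cenpe and Cenpf were higher (1.99 and 1.77 times).

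The change with tumour was then measured within each cell type. The 4 endothelial comparisons share groups, BEC normal libraries serving as the reference both here and against HEC normal libraries, so their values are set side by side and not counted as separate evidence. In BECs, which came from fat pad without tumour and from the tumour itself, mitosis genes rose: 7 of 46 at both thresholds (background 12.4%) and 32 at the adjusted p alone (background 26.5%), with a median log2 fold change of 0.41. Of the rest, 1 fell at both thresholds (background 10.8%) and 6 at the adjusted p alone (background 27.2%). In HECs 0 rose at both thresholds (background 4.58%) and 0 at the adjusted p alone (background 16.9%), with 0 also by edgeR and 0 at an unadjusted p under 0.05 (DESeq2). In the same HEC comparison 1 fell at both thresholds (background 3.21%) and 28 at the adjusted p alone (background 18.5%), with a median of -0.32. The 28 decreases were mostly small, since only Ncaph passed 2-fold. Of the genes past the adjusted p, 17 rose in BECs and fell in HECs, which is 53.1% of the 32 and 60.7% of the 28. The share of all genes tested that did both was not counted, so the 17 are given as a description only.

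Cdc20 (chromosome 4, 118432901 to 118437352) had 11654, 13360 and 12836 normalised counts in BEC normal and 28533, 29678 and 31391 in BEC tumour libraries, a log2 fold change of 1.24 ± 0.07 (adjusted p = 4.14e-66, DESeq2). In HECs it had 24323, 26334 and 26660 counts without and 19601, 19309 and 18025 with tumour, a fall of 0.44 (log2 fold change -0.44 ± 0.07, adjusted p = 8.22e-09). Kif2c rose from 7588, 7729 and 8176 to 16738, 16551 and 16738 counts in BECs (1.09 ± 0.04, adjusted p = 9.77e-155) and went from 11944, 12212 and 12352 to 7846, 7713 and 7578 in HECs (-0.66 ± 0.04, adjusted p = 4.26e-55). Both genes were highest in BEC tumour libraries. Cdc20 was lowest in BEC normal libraries, and for Kif2c BEC normal and HEC tumour libraries overlapped. Plk1 rose 1.62-fold in BECs (adjusted p = 2.29e-25) and was 1.59 times as high in HEC normal as in HEC tumour libraries (adjusted p = 8.38e-23). Anln, the anillin scaffold of the cleavage furrow, rose 2.23-fold in BECs, from 12106 to 16356 counts up to 28429 to 34747 counts, and did not pass in HECs (0.16 ± 0.11, adjusted p = 0.259).

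Ncaph, the kleisin subunit of condensin I, changed in HECs and did not pass in BECs. It had 7951, 7867 and 8301 normalised counts in BEC normal and 8093, 8139 and 8241 in BEC tumour libraries, 8622, 8163 and 8925 in HECs without and 4077, 4076 and 3958 in HECs with tumour. The HEC tumour libraries lay far below all other libraries, which differed little from each other, with a log2 fold change from HEC normal of -1.09 ± 0.05 (adjusted p = 1.09e-105, DESeq2). Ncapd2, a condensin I subunit outside the 46 genes and named after its values were seen, also fell in HECs, from 16884, 18285 and 17566 to 10101, 10030 and 10233 counts (-0.80 ± 0.05, adjusted p = 4.53e-49). Ncapg fell by less (-0.40 ± 0.13, adjusted p = 0.0109), and Smc4 (-0.07 ± 0.22, adjusted p = 0.845) and Smc2 (0.37 ± 0.21, adjusted p = 0.156) did not pass. Pttg1 was the member that fell at both thresholds in BECs, from 3607, 4615 and 4336 to 1479, 1509 and 1854 counts (-1.37 ± 0.12, adjusted p = 2.63e-27), and it also fell in HECs, from 2610, 2621 and 2576 to 1635, 1660 and 1411 (-0.73 ± 0.12, adjusted p = 5.89e-08). Its binding partner separase, Espl1, was 1.1 times as high in tumour BECs (adjusted p = 0.0485).

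Mki67, Cenpe and Cenpf had large but loose increases in BECs. Mki67 had 22384, 18313 and 8112 normalised counts in BEC tumour libraries, the last below the 9410 of BEC normal replicate 1, so the groups overlapped (1.39 ± 0.38, adjusted p = 0.000702, DESeq2). Cenpe overlapped in the same way, with 3528, 3029 and 1377 counts against 1470, 751 and 818 (1.38 ± 0.30, adjusted p = 1.83e-05). Cenpf, at 2992, 2451 and 1258 counts, lay just above the 1198 of BEC normal replicate 1 (1.44 ± 0.29, adjusted p = 3.88e-06). HEC libraries were tight for Mki67, at 21884 to 23246 counts without and 18580 to 19973 with tumour (-0.24 ± 0.38, adjusted p = 0.683). These HEC groups did not overlap. The standard error came from the fit of all endothelial libraries, so this p-value also carries the wider BEC spread.

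**Figure D3:**
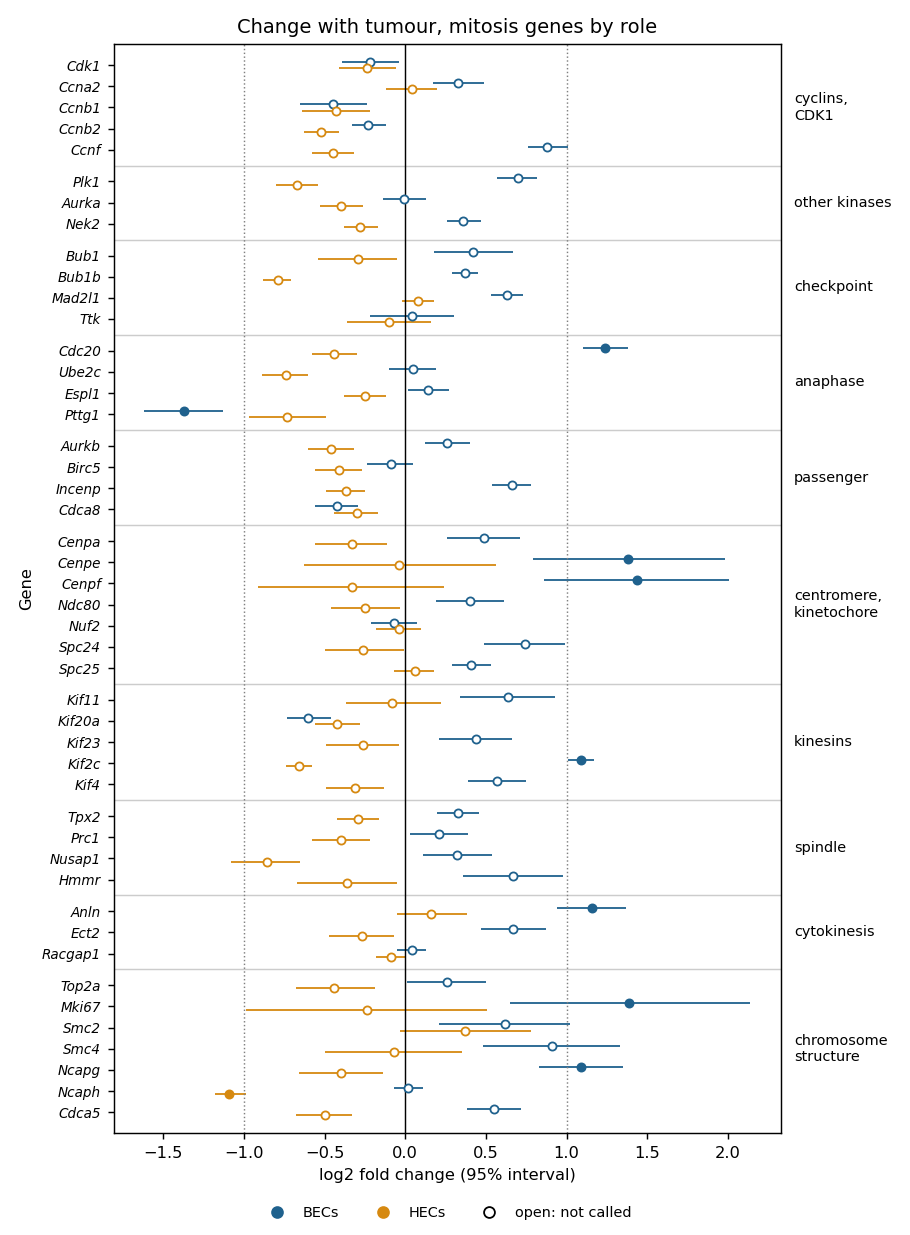
log2 fold change with tumour (x axis, with 95% intervals) in BECs (blue) and HECs (orange) for each of the 46 genes (y axis, grouped by role); filled points passed the adjusted p and the 2-fold threshold, dotted lines mark 2-fold. Most blue points lie to the right of 0 and most orange points to the left, with Pttg1 left in both and Ncaph at 0.02 in BECs and -1.09 in HECs.

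The difference between these changes was itself tested, by subtracting the BEC change from the HEC change in the same fit. It was negative and past both thresholds for 14 of the 46 genes (background 12.1%) and positive for 0 (background 11.2%), with 0 also by edgeR and 1 at an unadjusted p under 0.05. At the adjusted p alone it was negative for 37 (background 23.8%) and positive for 1, Pttg1 (background 22.9%). The median difference was -0.72, against -0.00 over all genes. Cenpf (-1.77 ± 0.41, adjusted p = 8e-05, DESeq2), Kif2c (-1.75 ± 0.06, adjusted p = 7.03e-197) and Cdc20 (-1.68 ± 0.10, adjusted p = 1.4e-60) differed most. The other 11 were Mki67, Ncapg, Cenpe, Plk1, Ccnf, Nusap1, Bub1b, Ncaph, Cdca5, Incenp and Hmmr, between -1.64 and -1.03. Cdk1 (-0.02 ± 0.13, adjusted p = 0.904), Ccnb1 (0.02 ± 0.15, 0.945) and Nuf2 (0.03 ± 0.10, 0.819) did not pass, and their 95% intervals ran from -0.28 at the lowest to 0.31 at the highest. Leaving out single libraries gave 12 to 17 genes in place of 14. The genes that lost the call in at least 1 alternative were Incenp, Hmmr and Cdca5, all close to 2-fold.

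Markers of other cells moved with the BEC comparison. The 7 myeloid markers summed to 108 to 129 CPM in BEC normal and 1492 to 2008 in BEC tumour libraries, with Lyz2 up to 919 and Cd68 up to 924 CPM, while Ptprc (CD45), the marker the sort removed, was at most 12.8 CPM. The 8 epithelial tumour markers summed to 4.58 to 7.41 CPM in BEC normal, 17.4 and 21 in BEC tumour replicates 1 and 2 and 112 in replicate 3, against 3628 to 4609 in vehicle-treated EO771 libraries. The 7 T cell markers summed to at most 0.439 CPM in BEC normal and 22.4 to 41 in BEC tumour libraries, nearly all Cd4, and the 6 B cell markers to 2.14 to 3.54 and 11.2 to 13.8. The 8 fibroblast and pericyte markers went from 264 to 279 down to 43.7 to 82.8 CPM. Their part in the rise of mitosis genes in BEC tumour libraries was not tested. The median log2 fold change of the 46 genes was 0.41 with all libraries and 0.43 without BEC tumour replicate 3. In HECs the myeloid markers were 483 to 509 CPM without and 355 to 374 with tumour, of which Cd68 gave nearly all and Ptprc at most 0.435. The B cell markers were 9.72 to 10.5 and 4.22 to 4.63 CPM, the epithelial markers 29.9 to 32.8 and 33 to 35.4, and the part of any of these in the HEC comparison was not tested.

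**Figure D4:**
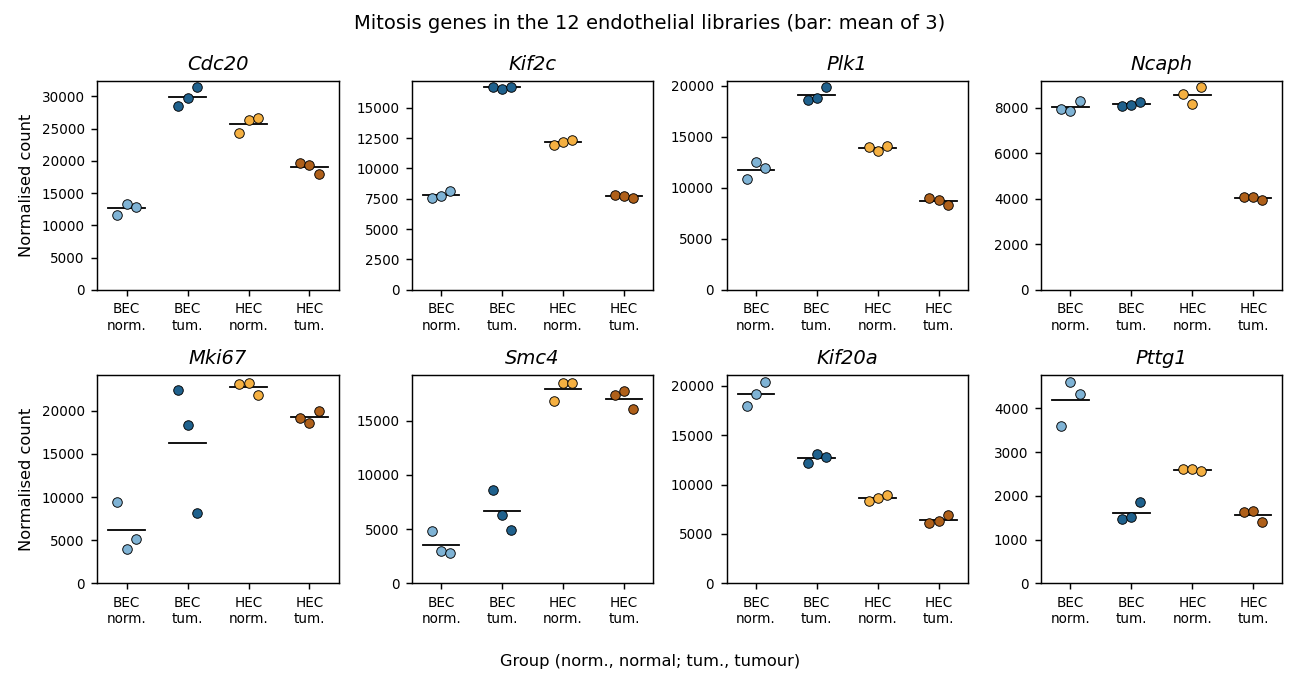
Normalised counts (y axes, each from 0) of 8 mitosis genes in the 12 endothelial libraries, by group (x axis), with each library as a point and the group mean as a bar. Cdc20, Kif2c and Plk1 are highest in BEC tumour libraries, Ncaph is low in HEC tumour libraries alone (3958 to 4077), Smc4 is highest in both HEC groups, and Mki67 spreads from 8112 to 22384 in BEC tumour libraries.

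In EO771 cells the question was which transcripts 12-HETE changed. Mitosis genes rose with 12-HETE: 36 of 46 at the adjusted p alone (background 22.7%) and 0 fell (background 24.2%), with 0 lower also by edgeR and at an unadjusted p under 0.05 (DESeq2). At both thresholds 4 rose (background 2.38%) and 0 fell (background 7.79%). The median log2 fold change was 0.49, against 0.00 over all genes, and 44 of the 46 values were above 0. The count of 4 rested on single libraries: it was 0 without vehicle replicate 2, 10 without vehicle replicate 3, 3 without vehicle replicate 1 and 2 without each of the 12-HETE replicates, while the median lay between 0.42 and 0.59 over these omissions. The 8 epithelial markers summed to 3628 to 4609 CPM with vehicle and 2680 to 2747 with 12-HETE, and the 8 fibroblast and pericyte markers to 390 to 613 and 998 to 1037, and their part in the result was not tested.

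Mad2l1, which encodes the checkpoint protein that inhibits CDC20, had 1551, 1397 and 1734 normalised counts with vehicle and 3082, 3372 and 3309 with 12-HETE. All treated libraries lay above all vehicle libraries, with a log2 fold change of 1.06 ± 0.11 (adjusted p = 5.08e-20, DESeq2), and 0.94 at the lowest over the alternatives. Smc2 had 1523, 1162 and 2399 counts with vehicle and 3803, 3774 and 3996 with 12-HETE (1.19 ± 0.22, adjusted p = 9.47e-07). Mki67 had 3871, 2915 and 7313 counts with vehicle, of which replicate 3 lay nearest to the treated libraries at 10552, 10295 and 11638 (1.20 ± 0.41, adjusted p = 0.00999). Cenpf likewise had 1708, 1029 and 3316 counts with vehicle and 4433, 4335 and 4588 with 12-HETE (1.14 ± 0.49, adjusted p = 0.041), and its adjusted p reached 0.163 over the alternatives.

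By role, 5 of 5 cyclin and CDK1 genes, 4 of 4 checkpoint genes, 5 of 5 kinesins, 4 of 4 spindle genes and 3 of 3 cytokinesis genes rose at the adjusted p alone. Cdk1 was 1.23 times, Ccna2 1.56 times, Ccnb1 1.57 times and Top2a, the topoisomerase that untangles sister chromatids, 1.7 times as high. The 3 kinases outside the checkpoint and passenger complex did not pass. Plk1 had 3751, 3061 and 3407 counts with vehicle and 3428, 3491 and 3500 with 12-HETE (0.03 ± 0.10, adjusted p = 0.845), and Aurka gave -0.09 ± 0.08 (adjusted p = 0.37) and Nek2 0.17 ± 0.15 (0.348). Cdc20, with 3892, 3931 and 3609 counts against 3785, 3898 and 3835, also did not pass (0.01 ± 0.08, adjusted p = 0.923). The remaining genes that did not pass were Espl1, Incenp, Cdca8, Cenpa, Spc24 and Cdca5.

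Fold changes in EO771 cells went with exon length among these genes. Across the 46 genes the log2 fold change and the log2 exon length had a Pearson r of 0.62 and a Spearman rho of 0.58, against 0.11 and 0.15 over all 11493 genes with a length. These points share libraries and are given as a description. The 22 genes over 5000 bases had a median of 0.79 and the 9 genes under 3000 bases one of 0.23. Vehicle replicate 3 had its long mitosis genes 0.43 above the mean of the other vehicle libraries and its short ones at -0.05 (log2 medians). Vehicle replicate 2 had them at -0.35 and -0.12. With the length trend of all genes removed, 2 genes (Mki67 and Smc2) rather than 4 passed both thresholds. The part of transcript length in the result was otherwise not tested. In the endothelial comparisons r was 0.41 for HEC tumour against HEC normal, 0.40 for BEC tumour against BEC normal, 0.32 for HEC normal against BEC normal, 0.28 for HEC tumour against BEC tumour and -0.20 for the difference between the changes, where over all genes it lay between -0.12 and 0.03.

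**Figure D5:**
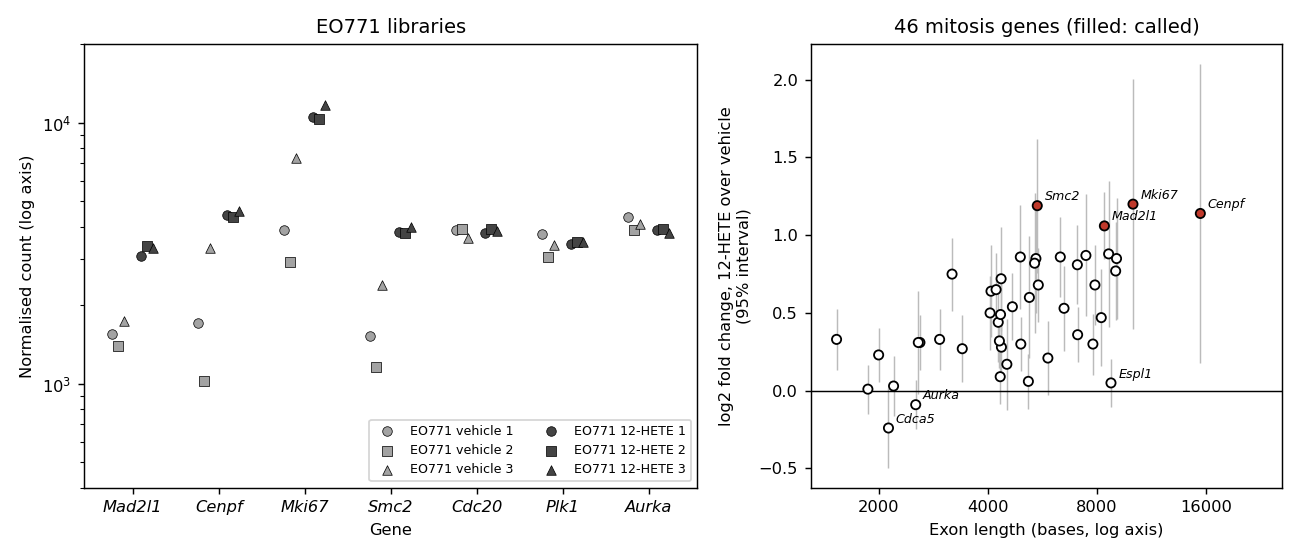
Left, normalised counts (log axis) of 7 mitosis genes in the 3 vehicle (light) and 3 12-HETE (dark) libraries, with marker shape for the replicate number. Right, log2 fold change with 12-HETE and its 95% interval (y axis) against exon length (x axis, log) for all 46 genes, filled where both thresholds were passed; the filled genes Mad2l1, Smc2, Mki67 and Cenpf are over 5000 bases long, and vehicle replicate 3 (triangles) lies nearest to the treated libraries for Mki67 and Cenpf.

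A further 62 genes of G2 and mitosis, not among the 46, were set beside them. In HEC normal against BEC normal libraries 5 were higher (8.06%, background 17.1%) and 1 lower (1.61%, background 15.1%) at both thresholds, with Psrc1, Kif20b and Cenpw foremost among the higher and Cdc25c lower, and edgeR gave 10 higher. At the adjusted p alone 33 were higher (53.2%, background 31.4%) and 12 lower (19.4%, background 31.9%). In HEC tumour against BEC tumour libraries 4 were higher (6.45%, background 11.2%) and 3 lower (4.84%, background 10.7%) at both thresholds, and 18 (29%, background 25.9%) and 28 (45.2%, background 28.4%) at the adjusted p alone. In BECs with tumour 4 rose at both thresholds (6.45%, background 12.4%; Ncapg2, Knl1 and Kif20b foremost) and 0 fell, and 37 rose (59.7%, background 26.5%) and 9 fell (14.5%, background 27.2%) at the adjusted p alone. In HECs with tumour 0 changed at both thresholds, and 7 rose (11.3%, background 16.9%) and 22 fell (35.5%, background 18.5%) at the adjusted p alone. The difference between the changes was past both thresholds and negative for 17 (27.4%, background 12.1%), with Dlgap5, Ncapd2 and Kif22 foremost, and positive for 1, Trip13. With 12-HETE 3 of 61 tested rose at both thresholds (4.92%, background 2.38%; Kif18a, Kif20b and Knl1) and 0 fell, and 40 rose (65.6%, background 22.7%) and 4 fell (6.56%, background 24.2%) at the adjusted p alone.

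Among the 24 regulators of this transcript wave, Foxm1, whose protein activates G2 genes, was lowest in BEC normal libraries. It had 9641, 4166 and 10469 normalised counts in BEC normal and 25136, 20065 and 25342 in BEC tumour libraries, 21304, 21585 and 20482 in HECs without and 17539, 20850 and 17455 in HECs with tumour. BEC normal libraries lay below all others, with a rise with tumour in BECs of 1.54 ± 0.25 (log2, adjusted p = 5.29e-09, DESeq2) and a difference between the changes of -1.72 ± 0.36 (adjusted p = 6.62e-06). Mybl2, the gene of B-MYB, was 0.64 ± 0.05 higher with tumour in BECs. In HECs Mybl2 had 8084, 8493 and 8175 normalised counts without and 9145, 9627 and 9444 with tumour. E2f6, a repressor of the E2F family, fell with tumour in BECs (-1.23 ± 0.11, adjusted p = 1.09e-25), and Tfdp1, the DNA-binding partner of E2Fs, was lower in HEC normal than in BEC normal libraries (-1.96 ± 0.10, adjusted p = 5.61e-79). At both thresholds 2 regulators were higher (8.33%, background 17.1%) and 2 lower (8.33%, background 15.1%) in HEC normal than in BEC normal libraries. In BECs with tumour 1 rose and 1 fell at both thresholds (4.17% each, backgrounds 12.4% and 10.8%). In HECs with tumour 0 passed both thresholds (backgrounds 4.58% and 3.21%). At the adjusted p alone 8 rose there (33.3%, background 16.9%) and 6 fell (25%, background 18.5%). Between HEC tumour and BEC tumour libraries 0 passed both thresholds (backgrounds 11.2% and 10.7%). At the adjusted p alone 2 were higher (8.33%, background 25.9%) and 9 lower (37.5%, background 28.4%) in HECs. With 12-HETE 0 of 23 tested passed both thresholds, while 8 rose (34.8%, background 22.7%) and 3 fell (13%, background 24.2%) at the adjusted p alone, and Foxm1 did not pass (-0.06 ± 0.08).

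Of 17 genes of CDK inhibitors and other cell cycle brakes, 8 were higher (47.1%, background 17.1%) and 3 lower (17.6%, background 15.1%) in HEC normal than in BEC normal libraries at both thresholds, and 4 were higher (23.5%, background 11.2%) and 2 lower (11.8%, background 10.7%) in HEC tumour than in BEC tumour libraries. With tumour 4 rose (23.5%, background 12.4%) and 1 fell (5.88%, background 10.8%) in BECs at both thresholds. At the adjusted p alone 7 rose and 7 fell in BECs (41.2% each, backgrounds 26.5% and 27.2%). In HECs with tumour 0 rose and 1 fell at both thresholds, and 2 rose (11.8%, background 16.9%) and 8 fell (47.1%, background 18.5%) at the adjusted p alone. The gene past 2-fold there was Ccng2, which encodes cyclin G2 and was 2.83 times as high in HEC normal as in HEC tumour libraries (adjusted p = 7.1e-50, DESeq2). Cdkn1b, which encodes p27, had 1981, 2328 and 2601 normalised counts in BEC normal and 3414, 5324 and 5206 in BEC tumour libraries, 9342, 7966 and 8954 in HECs without and 5558, 5817 and 5540 in HECs with tumour. HEC normal libraries were highest, at a log2 fold change of 1.93 ± 0.16 over BEC normal (adjusted p = 1.74e-31, DESeq2). Cdkn2a, the locus of p16 and p19ARF, had 9545, 11376 and 10691 counts in BEC normal, 1692, 2400 and 3176 in BEC tumour and 137 to 210 in all HEC libraries. It fell by 2.12 (log2) with tumour in BECs (adjusted p = 1.01e-26) and was lower in HEC normal than in BEC normal libraries by a log2 fold change of -5.79 ± 0.20 (adjusted p = 2.08e-178).

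In EO771 cells most of these brakes fell with 12-HETE: 0 of 16 tested rose and 6 fell (37.5%, background 7.79%) at both thresholds, and 2 rose (12.5%, background 22.7%) and 10 fell (62.5%, background 24.2%) at the adjusted p alone. Gadd45g, a stress-induced inhibitor of CDK1 activity, had a mean of 1849 ± 764 normalised counts with vehicle and 211 ± 19.8 with 12-HETE (SD, n = 3), a log2 fold change of -3.13 ± 0.25 (adjusted p = 1.23e-33, DESeq2). Btg2, an antiproliferative gene induced by p53, had 3084, 4206 and 3194 counts with vehicle and 736 to 823 with 12-HETE (-2.17 ± 0.14, adjusted p = 2.7e-49). Cdkn1a, which encodes p21, had 4651, 8299 and 4205 counts with vehicle and 2290, 2268 and 2273 with 12-HETE (-1.33 ± 0.23, adjusted p = 4.77e-08). Vehicle replicate 2, the library lowest in mitosis genes, was the highest of the vehicle libraries in Cdkn1a, Btg2, Gadd45a (875 against 643 and 573) and Gadd45b (756 against 485 and 445).

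Among 26 G1 cyclins, CDKs and S phase genes, HECs without tumour had 2 below BECs at both thresholds (7.69%, background 15.1%; Ccnd2 and Ccne1) and 0 above. Of HEC tumour against BEC tumour, 0 passed both thresholds (backgrounds 11.2% and 10.7%). At the adjusted p alone, HEC tumour libraries had 6 above BEC tumour (23.1%, background 25.9%) and 11 below (42.3%, background 28.4%). With tumour in BECs 0 rose and 1 fell at both thresholds (3.85%, background 10.8%; Ccnd2). In the same BEC comparison 9 rose (34.6%, background 26.5%) and 7 fell (26.9%, background 27.2%) at the adjusted p alone. In HECs with tumour 0 passed both thresholds, and 10 rose (38.5%, background 16.9%) and 4 fell (15.4%, background 18.5%) at the adjusted p alone, where the 46 mitosis genes had 0 and 28. The summed level of the 26 genes in HECs was 6230 to 6546 CPM without and 7511 to 7577 with tumour. That of the mitosis genes went from 6609 to 6653 down to 5607 to 5672. Ccnd1, which encodes cyclin D1 and had the largest counts of the 26, weighs heavily in their sum. It had 110476, 122683 and 114721 normalised counts in HEC normal and 159636, 159447 and 160377 in HEC tumour libraries. Over the 26 genes the median log2 fold change was 0.05, with 14 values above 0 and 12 below, so the sum does not describe the list as a whole. With 12-HETE 1 of 25 tested rose at both thresholds (4%, background 2.38%), Ccne2, which encodes cyclin E2 (1.32 ± 0.18, adjusted p = 6.57e-12, DESeq2). With 12-HETE 16 rose at the adjusted p alone (64%, background 22.7%) and 2 fell (8%, background 24.2%).

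Among 24 subunits of the anaphase-promoting complex and cohesin, 2 (8.33%, background 17.1%; Smc3 and Nipbl) were higher and 1 (4.17%, background 15.1%; Cdc23) lower in HEC normal than in BEC normal libraries at both thresholds. With tumour in BECs 2 rose (8.33%, background 12.4%; Anapc4 and Nipbl) and 0 fell at both thresholds. In HECs with tumour 0 passed both thresholds, and 3 rose (12.5%, background 16.9%) and 5 fell (20.8%, background 18.5%) at the adjusted p alone. With 12-HETE 0 passed both thresholds, and 12 rose (50%, background 22.7%) and 2 fell (8.33%, background 24.2%) at the adjusted p alone.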

How the data were processed

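RNA-seq libraries of sorted mouse endothelial cells (12) and EO771 cells (6) were analysed, grouped by their labels. Per the study's methods, the authors aligned reads with STAR to GRCm38, counted them with featureCounts and tested with DESeq2; whether counting used strand is not given in the sources used here. The deposited EO771 values are raw counts. The deposited endothelial values are whole numbers that rise in steps of 3.82 to 3.96 and were taken, in the form the authors deposited them, for estimated counts (expected_counts); why they rise in steps is not given in the sources used here, and dividing by the step was an alternative. Labels and methods name different library kits.

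Genes with a mean count of at least 10 were fitted with DESeq2 1.42.0 (R 4.3.3; two-sided Wald test, Benjamini-Hochberg adjustment over all genes tested), in a fit of the 12 endothelial libraries and a fit of the 6 EO771 libraries. A gene was called at an adjusted p under 0.05 and a fold change over 2. CPM and TPM (by summed exon length) were computed here. edgeR 4.0.16 (quasi-likelihood, TMM), other size factors, no filter, fits of the compared groups alone, a replicate block and omission of each library were alternatives, and removal of the trend with exon length was added after seeing the data. The fits were tested on simulated data. Deviations of same-numbered EO771 libraries from their group means correlated at 0.11, 0.17 and 0.33. The labels give only a replicate number, and the main fits held group alone without pairing. All p-values printed with a fold change are therefore unpaired, and the replicate block was the alternative that used the numbers. All 46 genes could be named. Regulators and brakes were named freely, and of the other gene lists the 3 called genes with the largest Wald statistic in each direction. Ncapd2 and Ccnd1 were named after their values were seen. The genes and lists were chosen with earlier results of these data known.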

Additional observations from a re-analysis of the deposited data

Results flagged for a closer look

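For 14 of the 46 genes HECs and BECs changed differently with tumour by the interaction term of the DESeq2 fit (adjusted p under 0.05, log2 difference over 1 in size). All 14 differences were negative, where the background was 12.1% of all genes tested for negative and 11.2% for positive differences. The log2 difference, HECs less BECs, was -1.77 for Cenpf, -1.75 for Kif2c, -1.68 for Cdc20, -1.64 for Mki67, -1.49 for Ncapg, -1.42 for Cenpe and -1.37 for Plk1. It was -1.33 for Ccnf, -1.19 for Nusap1, -1.16 for Bub1b, -1.11 for Ncaph, -1.05 for Cdca5, -1.03 for Incenp and -1.03 for Hmmr. Myeloid markers rose from 108 to 129 up to 1492 to 2008 CPM in BECs with tumour, and their part in these differences was not tested. BECs and HECs also came from different organs, which cannot be told apart from cell type here.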

How the results depend on the processing

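No mitosis gene changed direction past the thresholds in any alternative. At the adjusted p alone the counts of higher and lower genes were 31 and 13 for HEC normal against BEC normal, 5 and 27 for HEC tumour against BEC tumour, 0 and 28 for HECs with tumour, 32 and 6 for BECs with tumour, 1 and 37 for the difference between these changes and 36 and 0 with 12-HETE. For HEC tumour against BEC tumour the 1 higher gene became 2 with total-count factors, 2 with the replicate block and 2 with values divided by their step, and 3 with the length trend removed, while the 5 lower genes became 3 with total-count factors. With those factors the median moved from -0.41 to -0.36 there and from -0.32 to -0.25 for HECs with tumour. Removing the length trend left 2 of 4 calls with 12-HETE. The cause of these moves was not tested.

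The summed level as TPM was 3194 and 4390 in BECs without and with tumour, 3817 and 3229 in HECs without and with tumour, 4670 in vehicle and 5972 in 12-HETE libraries. Over genes of both tables it was 6979 CPM in HEC normal and 5937 CPM in HEC tumour libraries.

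Leaving out single libraries gave 6 to 7 higher and 1 lower (median 0.22 to 0.36) for HEC normal against BEC normal, and 1 to 3 higher and 5 to 6 lower (-0.47 to -0.38) for HEC tumour against BEC tumour. It gave 0 higher and 1 lower (-0.35 to -0.3) for HECs with tumour, 6 to 8 higher and 1 lower (0.34 to 0.44) for BECs with tumour, 0 higher and 12 to 17 lower (-0.79 to -0.61) for the difference, and 0 to 10 higher and 0 lower (0.42 to 0.59) with 12-HETE. There it was 0 without vehicle replicate 2 and 10 without vehicle replicate 3. Summed CPM ranged over 5041 to 5317, 6846 to 7195, 6616 to 6638 and 5635 to 5667 in BECs without and with tumour and HECs without and with tumour, and over 5594 to 6402 and 8388 to 8505 with vehicle and 12-HETE.

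Same-numbered endothelial libraries correlated at -0.01 to 0.13, and the labels give them only a shared number. The replicate block moved no other count of mitosis genes by over 1.5 times. The spread between libraries limited precision, with a standard error of 0.38 for Mki67 in each endothelial comparison of 2 groups and 0.49 for Cenpf with 12-HETE. For Mki67 the SD of normalised counts was 2847 in BEC normal and 7352 in BEC tumour libraries. It was 751 in HEC normal and 698 in HEC tumour libraries. All endothelial libraries shared a fit, so the 0.38 does not describe the spread of the HEC libraries alone.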

Other observations

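Among the 39 genes with a promoter, the 30 that held CHR letters had a median log2 fold change of 0.36 for HEC normal against BEC normal libraries and the 9 without them 0.09. With tumour in BECs the medians were 0.46 and 0.02, and in HECs -0.32 and -0.41. With 12-HETE both medians were 0.50. These are descriptions with no test.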
